A study of Nematostella vectensis and Apis mellifera and Strongylocentrotus purpuratus with 22 samples.

Results

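The regions described here are the CpG-dense windows of the sea anemone genome. They are the 1000-bp windows that held at least 60 CpGs listed in any of the sea anemone methylation data sets. Of 310943 windows with a listed CpG, 12573 (4.04%) met this rule, and they held 934119 of the 8891036 listed CpGs. The median window of the genome held 28 CpGs, the median dense window held 71, and the densest held 154. Only the number of CpGs chose them, so their methylation was free to vary.

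DNA methylation was measured by whole-genome bisulfite sequencing (WGBS) in 22 sets of gametes and early embryos of 4 invertebrate species. In this method, unmethylated cytosines are converted and read as thymine, and methylated cytosines are still read as cytosine. The 8 sea anemone (Nematostella vectensis) sets came from wild-type laboratory lines of animals collected in Florida or in Massachusetts. Florida gave sperm, oocytes, cleavage embryos, blastulae and gastrulae, and Massachusetts gave sperm, cleavage embryos and blastulae. Each stage of each population had 1 set of calls. The Florida cleavage and gastrula sets pool 2 replicates each, so no spread between replicates could be computed, and every test between a pair of sets compares those libraries and not the conditions. Sperm samples were centrifuged against somatic cells, and how many adults stand behind a set is not given.

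In invertebrates, CpG methylation is typically mosaic: methylated stretches, often over the bodies of transcribed genes, alternate with stretches that carry almost none. A methylated cytosine that deaminates becomes thymine, so sequence that is methylated in the germ line tends to lose CpGs over evolutionary time. Windows that kept many CpGs are therefore usually unmethylated, and the few that are both dense and methylated are the unusual ones. No genome sequence or gene annotation of the assembly used (ASM20922v1) was at hand, so windows are named by scaffold and by first and last base, and genes and sequences are not analysed here.

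The level of a window is the mean, over its CpGs with at least 5 reads, of the share of reads that carried methylation, and a window was measured where at least 5 CpGs had that depth. Total read calls over CpGs ranged from 69290307 in Massachusetts cleavage embryos to 389977166 in Florida blastulae. The Florida sets measured 93.0% to 98.5% of the dense windows and the Massachusetts sets 80.8% to 88.7%. In all, 9470 dense windows were measured in all 8 sets, 2976 in 1 to 7 sets and 127 in none. The 3103 windows without a level in all 8 sets lay on scaffolds shorter than 50000 bp in 27.1% of cases, and their median depth was 0.116 to 0.295 times the median depth of the set.

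The dense windows carried little methylation at every stage. Over the 9470 windows measured in all sets, the mean level in Florida was 0.0320 in sperm, 0.0316 in oocytes, 0.0332 in cleavage embryos, 0.0297 in blastulae and 0.0319 in gastrulae. In Massachusetts it was 0.0475 in sperm, 0.0595 in cleavage embryos and 0.0568 in blastulae. The 3 Massachusetts sets thus lay above the 5 Florida sets without overlap. The 196552 less dense windows measured in all sets had means of 0.191 to 0.198 in Florida and 0.213 to 0.223 in Massachusetts, which is 5.77 to 6.43 times the dense mean in Florida and 3.75 to 4.48 times in Massachusetts. Levels here are not corrected for unconverted cytosines. The median level of the dense windows was 0.00698 to 0.0110 over the 8 sets. The unconverted share that the paper reports for these sets is of about the same size. The paper subtracted this share from its average levels, whereas the means and ratios given here include it. Its part in the ratios was not tested.

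**Figure D1:**
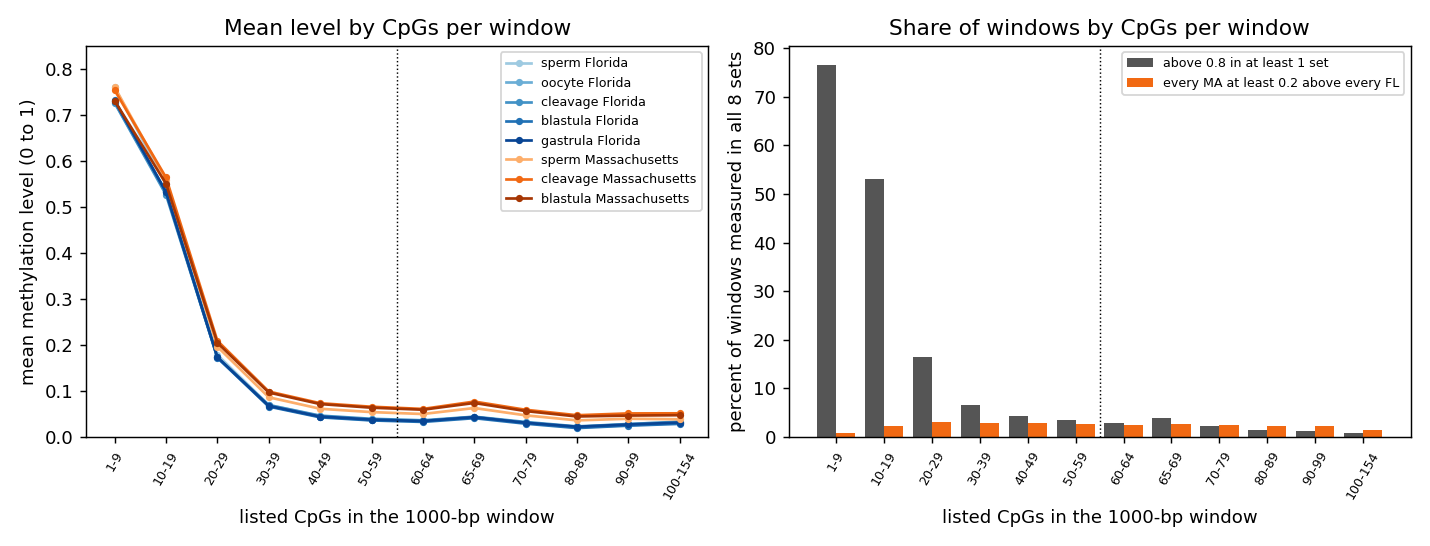
Mean methylation level (left) and the percent of windows that were methylated or that separated the populations (right), by the number of listed CpGs in the 1000-bp window, over windows measured in all 8 sets. The dotted line marks the limit of 60 CpGs. Mean levels are at least 0.726 at 1 to 9 CpGs and at most 0.0762 beyond the line, and the Massachusetts lines lie above the Florida lines in each class of 10 or more CpGs.

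The fall of methylation with the number of CpGs was steep below the limit and nearly flat beyond it, as the plot of level by CpGs per window shows. In Florida sperm the mean level was 0.760 in windows of 1 to 9 CpGs, 0.549 at 10 to 19, 0.178 at 20 to 29, 0.0376 at 50 to 59 and 0.0338 at 60 to 64. From 65 to 69 CpGs it was 0.0431, the highest of the dense classes, and at 80 to 89 CpGs it was 0.0207, the lowest. The limit itself marked no step: the 842 measured windows of exactly 60 CpGs had a mean level of 0.0358 in Florida sperm and the 934 of 59 CpGs had 0.0355. Relative depth, the reads per CpG over the median of the set, differed across the same classes, with 1.19 at 60 to 64 CpGs and 0.625 at 100 or more in Florida sperm. Its part in the levels was not tested.

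A window was called unmethylated below 0.2 and methylated above 0.8. Of the 9470 windows measured in all sets, 8621 (91.0%) were unmethylated in all 8 and 38 (0.401%) were methylated in all 8. In all, 229 (2.42%) were methylated in at least 1 set, and 620 were neither in this class nor unmethylated throughout. Among less dense windows 70.2% were unmethylated in all 8 sets and 11.9% were methylated in all 8. Of the 229 windows, 145 passed 0.8 only in Massachusetts sets, 10 only in Florida sets and 74 in both populations. The most frequent pattern came from Massachusetts embryos, where 78 windows were above 0.8 in both Massachusetts embryo sets and in no other set. This split was not counted in less dense windows. Of those, 17.1% and 16.3% were above 0.8 in Massachusetts cleavage embryos and blastulae, against 14.0% to 14.5% in the Florida embryo sets. In dense windows these shares were 2.07% and 1.82%, against 0.549% to 0.665%. The part of depth was not tested. Over all dense windows, complete or not, 292 were above 0.8 in at least 1 set and 11396 were below 0.2 in every set that measured them.

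The windows methylated in all 8 sets lay above 0.8 at every stage by the rule that chose them, so their narrow range is a description only. Their median level was 0.920 in Florida sperm, 0.910 in oocytes, 0.871 in cleavage embryos, 0.890 in blastulae and 0.891 in gastrulae, and 0.916, 0.918 and 0.904 in Massachusetts sperm, cleavage embryos and blastulae. The lowest level of any of the 38 in any set was 0.801, just inside the bound that chose them. They lay on 35 scaffolds and held a median of 64.5 CpGs, near the lower limit of the rule, against 70 in the unmethylated group. Their depth was ordinary, with a median of 1.11 to 1.36 times that of the set. None held 90 or more CpGs.

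The window on scaffold_84 from 279001 to 280000, with 61 CpGs, had the highest floor. Its level was 0.969 in Florida sperm, 0.957 in oocytes, 0.943 in cleavage embryos, 0.956 in blastulae and 0.929 in gastrulae, and 0.952, 1 and 1 in Massachusetts sperm, cleavage embryos and blastulae. The values of 1 rest on 39 and 41 read calls, which leave 95% Wilson intervals that reach down to 0.910 and 0.914, for counting error only. A window on scaffold_7 from 1836001 to 1837000, with 68 CpGs, read 0.940, 0.927, 0.930, 0.939 and 0.950 in the Florida sets in order of development and 0.972, 0.954 and 0.922 in the Massachusetts sets. On scaffold_149 from 165001 to 166000, with 60 CpGs, the 8 levels spanned 0.912 to 0.957. In all 3 windows the levels of gametes and embryos overlapped.

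The rest of the 10 windows with the highest floor also stayed high in every set, as their choice requires. The window on scaffold_8 from 2031001 to 2032000 ranged from 0.912 in Florida cleavage embryos to 0.966 in Massachusetts sperm, and that on scaffold_202 from 127001 to 128000 from 0.912 to 0.945. The window on scaffold_408 from 115001 to 116000 ranged from 0.909 to 0.962 and that on scaffold_176 from 167001 to 168000 from 0.904 to 0.968, both lowest in Florida cleavage embryos. That set was also the lowest by the median of the 38 windows. The windows on scaffold_362 from 180001 to 181000, scaffold_369 from 140001 to 141000 and scaffold_352 from 29001 to 30000 had floors of 0.902, 0.90 and 0.898. The group held both repeated and plain CpG patterns. In the window of scaffold_84 a share of 0.918 of the CpGs had another CpG 22 bp further on, whereas in that of scaffold_202 the best distance, 44 bp, gave a share of 0.159. Such shares count only the CpGs whose partner position falls inside the window.

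**Figure D2:**
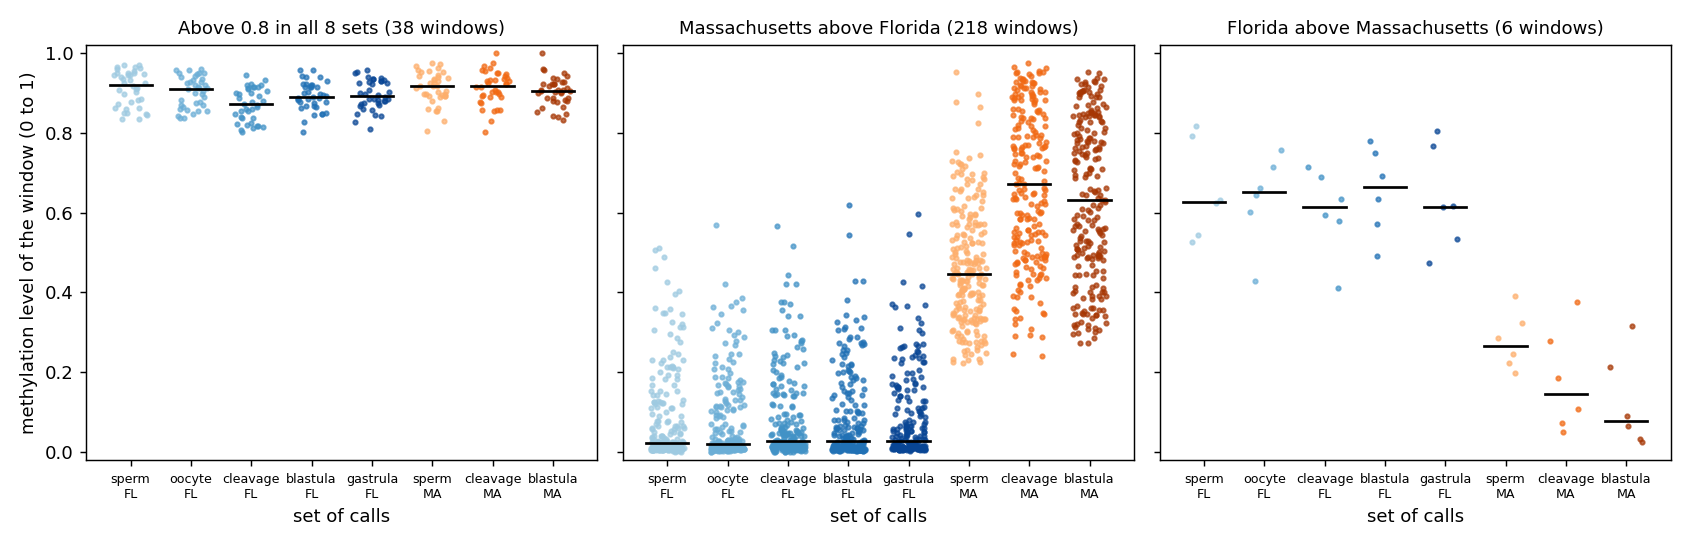
Methylation level of each dense window (points, with the median as a bar) in the 5 Florida (FL) and 3 Massachusetts (MA) sets, for windows methylated in all 8 sets, for windows where every Massachusetts set lay at least 0.2 above every Florida set, and for the reverse. Massachusetts sperm sits between Florida and the Massachusetts embryos, with medians of 0.447 in the middle panel and 0.265 in the right one.

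Methylated dense windows lay inside methylated surroundings. The windows next to the 38 had mean levels of 0.699 to 0.816 over the 8 sets, and those 5 kb away still had 0.314 to 0.539. Of the 24 with both neighbours measured in all sets, 17 had a neighbour that was also methylated in all 8, and none had 2 unmethylated neighbours. The neighbours held fewer CpGs, with medians of 37 and 31.5 against 64.5. The unmethylated dense windows had neighbours at 0.0172 to 0.0255, and 93.4% of the 6727 with both neighbours measured sat between windows that were unmethylated throughout. Over all windows measured in all sets, 11.4% were methylated in all 8 and 71.2% were unmethylated in all 8. Neighbours of less dense windows were not counted, so these surroundings are not shown to be particular to dense windows.

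**Figure D3:**
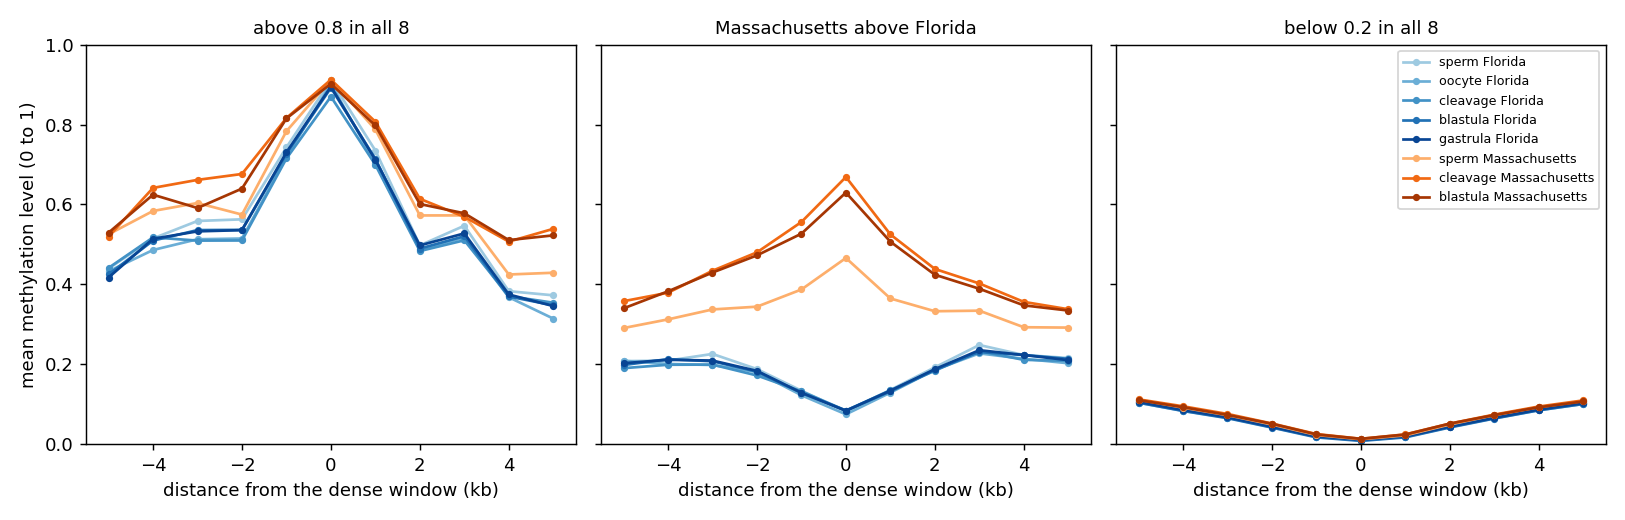
Mean methylation level of the windows up to 5 kb on either side of dense windows in 3 groups, in each of the 8 sets; distance 0 is the dense window itself. Around windows with higher Massachusetts levels, the Florida lines dip at the centre, from 0.190 or more at 5 kb to at most 0.0843, whereas the Massachusetts lines peak there. The centre windows were chosen for this gap, so the gap at distance 0 is built in. They also held a median of 68.5 CpGs, against 47 and 46 in the windows next to them.

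To ask how far the populations differed, the mean level of the 9470 windows was compared between the 3 Massachusetts and 5 Florida sets. It was 0.0546 ± 0.00628 (SD, n = 3) in Massachusetts and 0.0317 ± 0.00128 (SD, n = 5) in Florida, a difference of 0.0229. The exact permutation test over sets gave a two-sided p = 0.0179, the smallest that the 56 assignments allow. The less dense windows differed by 0.0251 with the same p. With the 3 shared stages alone and labels exchanged within stage, the difference was 0.0231 and p = 0.25, the smallest that this exact test allows. Each SD here covers different stages, and population, sequencing depth and library cannot be told apart, since the Massachusetts sets were also the 3 shallowest.

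Single windows that kept the populations apart were few. In 218 of 9470 dense windows (2.30%), every Massachusetts set lay at least 0.2 above every Florida set, and in 6 (0.0634%) every Florida set lay at least 0.2 above every Massachusetts set. Over all windows of the genome measured in 8 sets the shares were 2.60% and 0.221%, so neither share of dense windows was above the background of the genome. The 218 windows lay on 130 scaffolds in 184 blocks, 156 of them single windows and none longer than 3, and scaffold_56 held 11 of them. Without Massachusetts sperm the counts were 374 and 17.

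Within the 218 windows the Florida sets were mostly low. Their medians were 0.0237 in sperm, 0.0212 in oocytes, 0.0290 in cleavage embryos, 0.0276 in blastulae and 0.0290 in gastrulae, and 169 of the windows were below 0.2 in all 5. The Massachusetts medians were 0.447 in sperm, 0.671 in cleavage embryos and 0.632 in blastulae. Massachusetts sperm was lower than both Massachusetts embryo sets in 192 of the 218 windows (88.1%), against 88.4% of the 5137 less dense windows chosen the same way. The sperm difference between populations was a median of 0.692 times the mean embryo difference, against 0.653 in those less dense windows. Single CpGs showed the same: a median of 76.0% of the CpGs of a window were between 0.2 and 0.8 in Massachusetts sperm, 50% in cleavage embryos and 58.7% in blastulae, and at most 2.20% in the Florida sets. The less dense windows gave 77.8%, 42.9% and 50% in these Massachusetts sets and at most 3.45% in Florida.

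The largest gaps between the populations were in 4 windows. On scaffold_3039 from 10001 to 11000, with 64 CpGs, the Florida levels were 0.0135, 0.0115, 0.0134, 0.0129 and 0.0124 in sperm, oocytes, cleavage embryos, blastulae and gastrulae, and the Massachusetts levels were 0.730, 0.883 and 0.891 in sperm, cleavage embryos and blastulae. On scaffold_132 from 574001 to 575000, with 91 CpGs, the Florida levels were 0.0115, 0.00615, 0.00952, 0.00988 and 0.0142 and the Massachusetts levels 0.722, 0.808 and 0.826. The CpGs of this window recurred every 45 bp throughout (share 1), and its depth was 4.50 to 6.32 times the median in Massachusetts and 1.64 to 3.93 times in Florida. Both windows were thus near 0 at every Florida stage and mostly methylated in Massachusetts.

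The windows on scaffold_171 from 457001 to 458000 and on scaffold_2970 from 4001 to 5000 completed the 4. The first had at most 0.00980 in any Florida set and 0.700, 0.949 and 0.915 in the Massachusetts sets. The second had at most 0.0164 in Florida and 0.718, 0.788 and 0.662 in Massachusetts, where it was also covered at 1.05 to 1.66 times the median depth against 0.185 to 0.279 times in Florida. In 3 of the 218 windows (1.38%) every Massachusetts depth was at least 2 times every Florida depth, against 52 of the 9470 (0.549%). The window on scaffold_132 did not meet this rule. The part of depth in the gaps was not tested.

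In the 6 windows with the reverse order, the Florida medians ranged from 0.613 to 0.663 and the Massachusetts medians were 0.265 in sperm, 0.147 in cleavage embryos and 0.0789 in blastulae. Massachusetts sperm was again the nearest of the 3 to Florida, in 5 of the 6, against 85.1% of the 449 less dense windows chosen the same way. On scaffold_95 from 673001 to 674000, with 61 CpGs, the Florida levels were 0.816, 0.756, 0.689, 0.778 and 0.803 in order of development, and the Massachusetts levels were 0.245, 0.108 and 0.0324. The oocyte value there rests on 9 CpGs. The others were on scaffold_307, scaffold_11, scaffold_175 and, with 2 windows, scaffold_272.

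Next, pairs of sets were compared window by window with Fisher's exact test on read calls, with Benjamini-Hochberg adjustment over all windows of the genome. A call needed mean levels at least 0.2 apart and an adjusted p under 0.05. A read covers several neighbouring CpGs, so the calls within a window are not independent and the p-values are too small. The count of calls with CpGs at least 200 bp apart, which was chosen after seeing the data, is therefore given where it changed by over 1.5 times.

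**Figure D4:**
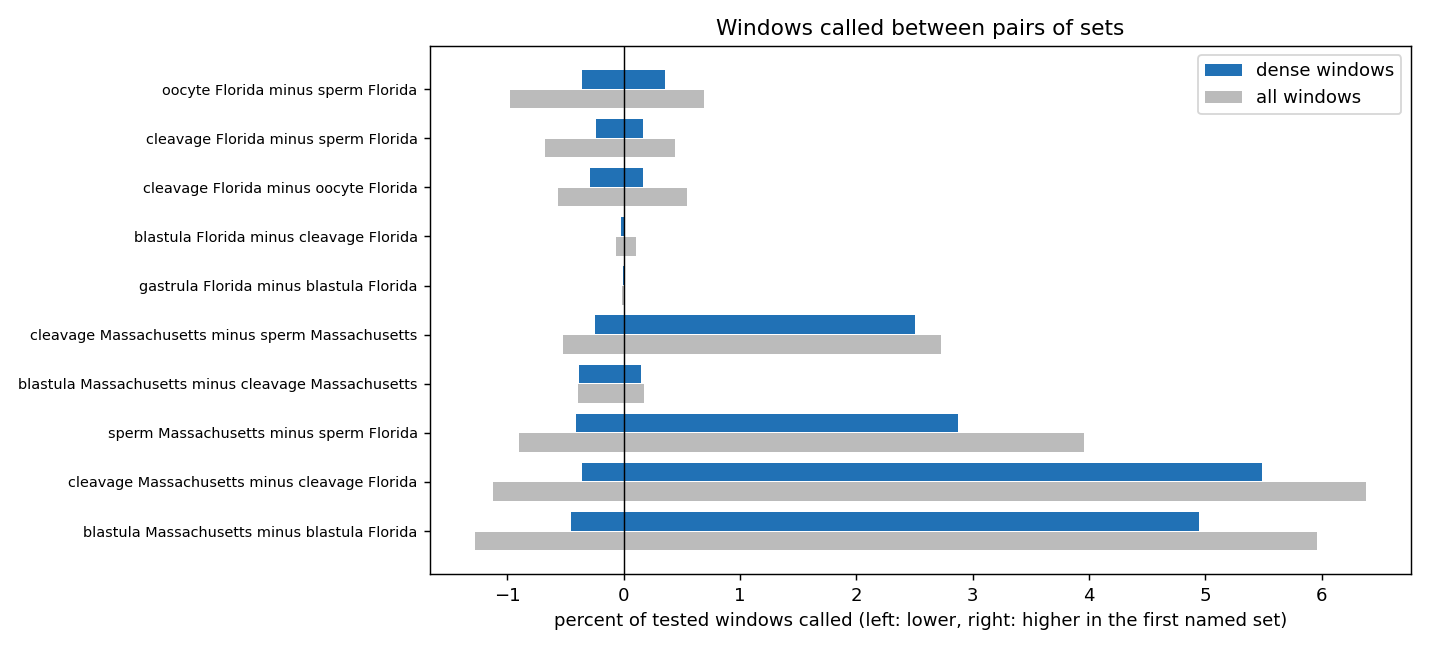
Percent of tested windows called lower (left of 0) or higher (right of 0) in the first named set of each pair, for dense windows and for all windows of the genome. The 3 comparisons between populations and the Massachusetts step from sperm to cleavage embryos have long bars to the right, up to 5.49% of dense windows, and the Florida stages have short bars on both sides.

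Between the populations, dense windows were called mostly higher in Massachusetts at each of the 3 shared stages. In sperm, 311 of 10827 tested windows (2.87%) were higher and 44 (0.406%) lower, against 3.96% and 0.903% of all windows (4.86% in both directions). In cleavage embryos 536 of 9763 (5.49%) were higher and 35 (0.358%) lower, against 6.38% and 1.12% (7.50% in both directions). In blastulae 535 of 10820 (4.94%) were higher and 49 (0.453%) lower, against 5.96% and 1.28% (7.24% in both directions). The shares of dense windows were below those of all windows in both directions in all 3 comparisons.

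The largest single differences approached the full range. On scaffold_2519 from 1 to 1000, cleavage embryos read 0.0146 in Florida and 0.964 in Massachusetts over 33 shared CpGs (Fisher's exact test, adjusted p = 3.65e-157). On scaffold_42 from 12001 to 13000 they read 0.00845 and 0.953 over 51 shared CpGs. Blastulae read 0.00678 and 0.950 on scaffold_187 from 308001 to 309000, and 0.00633 and 0.935 on scaffold_26 from 621001 to 622000. Sperm read 0.00688 in Florida and 0.917 in Massachusetts on scaffold_730 from 43001 to 44000 (Fisher's exact test, adjusted p = 2.80e-126), where the Massachusetts embryos were lower than their sperm, at 0.447 and 0.506. The Florida levels there were at most 0.00825, and Florida oocytes gave none.

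Differences in the other direction were fewer. On scaffold_161 from 330001 to 331000, with 66 CpGs, the Florida levels were 0.935, 0.891, 0.906, 0.919 and 0.927 in order of development, and the Massachusetts levels were 0.700 in sperm, 0.198 in cleavage embryos and 0.168 in blastulae. The difference was called in cleavage embryos (adjusted p = 1.14e-129) and blastulae (adjusted p = 4.32e-199) by Fisher's exact test, and between Massachusetts sperm and cleavage embryos (adjusted p = 1.77e-38). On scaffold_307 from 146001 to 147000, sperm read 0.791 in Florida and 0.225 in Massachusetts over 73 shared CpGs. On scaffold_175 from 194001 to 195000, cleavage embryos read 0.578 in Florida and 0.0728 in Massachusetts. These were windows where Florida was methylated or intermediate at every stage.

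Within Florida the stages differed little. The range over the 5 sets had a median of 0.00784 and reached 0.2 in 124 of the 9470 windows (1.31%), against 3.1% of less dense windows. Only 1 window passed from below 0.2 to above 0.8 between Florida sets. Of 11431 windows tested between sperm and oocytes, 41 (0.359%) were higher and 41 (0.359%) lower in oocytes, against 0.686% and 0.974% of all windows (1.66% in both directions). With spaced CpGs the 82 calls became 54.

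The strongest contrasts between Florida sperm and oocytes ran both ways. On scaffold_72 from 439001 to 440000, with 61 CpGs, the level was 0.179 in sperm and 0.799 in oocytes, and the embryos lay between them at 0.550, 0.500 and 0.460 in cleavage embryos, blastulae and gastrulae. In blastulae 98.4% of its CpGs were between 0.2 and 0.8. In Massachusetts the same window read 0.732 in sperm, 0.933 in cleavage embryos and 0.919 in blastulae. A second window of the same scaffold, from 755001 to 756000, read 0.141 in sperm, 0.722 in oocytes and 0.537, 0.432 and 0.378 in the embryos. Its depth was 4.79 to 11.3 times the median in Massachusetts and 0.545 to 0.887 times in Florida, and the part of depth was not tested.

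In the opposite direction, the window on scaffold_274 from 295001 to 296000, with 76 CpGs, was at 0.797 in Florida sperm and at 0.0182 in Florida oocytes. Over the 62 shared CpGs the adjusted p was 1.49e-287 by Fisher's exact test. Its Florida embryos again lay between, at 0.613, 0.522 and 0.466. Of the Massachusetts sets only blastulae gave a level, 0.922 over 15 CpGs. On scaffold_339 from 116001 to 117000 sperm read 0.751 and oocytes 0.140 over 30 shared CpGs.

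This position between the gametes held for most of the called windows, as counts show. Of the 41 higher in oocytes, the cleavage level lay between sperm and oocyte in 33, the blastula level in 33 and the gastrula level in 34, and all 3 did in 29. Of the 41 lower in oocytes the numbers were 36, 32, 36 and 31. On a scale where sperm is 0 and oocyte is 1, the median cleavage position was 0.395 in the first group and 0.502 in the second. Less dense windows gave 0.418 and 0.491, with cleavage levels between the gametes in 75.8% and 79.7%. The windows were chosen by the gamete levels, so these counts are a description, and the sources do not say whether the gametes sampled came from the parents of the embryos.

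From gametes to Florida cleavage embryos, 19 of 11476 dense windows (0.166%) were higher and 27 (0.235%) lower than in sperm, against 0.437% and 0.681% of all windows (1.12% in both directions). Against oocytes, 19 of 11293 (0.168%) were higher and 33 (0.292%) lower, against 0.546% and 0.569% (1.11% in both directions). With spaced CpGs the totals of 46 and 52 became 24 and 20. Relative to sperm, the window on scaffold_303 from 61001 to 62000 went from 0.356 to 0.737 and that on scaffold_97 from 317001 to 318000 from 0.567 to 0.135. Relative to oocytes, scaffold_329 from 189001 to 190000 went from 0.00621 to 0.426 and scaffold_39 from 409001 to 410000 from 0.764 to 0.324. The next in each direction were scaffold_249 from 25001 to 26000, at 0.737 in sperm and 0.350 in cleavage embryos, and scaffold_10 from 1233001 to 1234000, at 0.648 in oocytes and 0.249 in cleavage embryos. On scaffold_39 Florida sperm read 0.436, so the cleavage level of 0.245 over all measured CpGs was below both gametes.

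Later Florida stages were nearly still. Of 11798 windows, 3 (0.0254%) were lower in blastulae than in cleavage embryos and 0 higher, against 0.0681% and 0.109% of all windows (0.177% in both directions). Of 12291, 1 was lower in gastrulae than in blastulae and 0 higher, against 0.0166% and 0.0107% (0.0273% in both directions). At an unadjusted p below 0.05 by Fisher's exact test, without the limit on the difference, 3122 of the 11798 and 2800 of the 12291 dense windows passed. The share of all windows at this threshold was not counted, so these counts have no background. The median differences were -0.00339 and 0.00244 in dense windows and -0.00313 and 0.00171 in all windows. Levels include cytosines that escaped conversion, and the part of unequal conversion in differences of this size was not tested. With spaced CpGs no call was left in either. The named cases were scaffold_60 from 611001 to 612000, at 0.629 in cleavage embryos and 0.403 in blastulae, and scaffold_34 from 810001 to 811000, at 0.306 and 0.104. The gastrula call, a difference of -0.467, rested on fewer than 20 shared CpGs.

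In Massachusetts the step from sperm to cleavage embryos was larger. Of 9669 tested windows, 242 (2.50%) were higher in cleavage embryos and 24 (0.248%) lower, against 2.73% and 0.525% of all windows (3.25% in both directions). With spaced CpGs the 266 calls became 54, of which 51 were higher. On scaffold_187 from 308001 to 309000 the level over 27 shared CpGs was 0.319 in sperm and 0.942 in cleavage embryos (Fisher's exact test, adjusted p = 4.01e-40). On scaffold_97 from 237001 to 238000 it was 0.238 and 0.827 over 23 shared CpGs. In the other direction, scaffold_688 from 9001 to 10000 read 0.359 in sperm and 0.0286 in cleavage embryos.

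Massachusetts blastulae differed from cleavage embryos in few windows. Of 9835 tested, 15 (0.153%) were higher and 38 (0.386%) lower, against 0.178% and 0.397% of all windows (0.575% in both directions), and with spaced CpGs none of the 53 calls was left. The window on scaffold_68 from 188001 to 189000 read 0.116 in cleavage embryos and 0.411 in blastulae, and that on scaffold_362 from 131001 to 132000 read 0.714 and 0.276. The others were scaffold_1 from 1993001 to 1994000, at 0.261 and 0.607, and scaffold_333 from 40001 to 41000, at 0.529 and 0.157.

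The windows with the most CpGs were unmethylated. The densest, on scaffold_262 from 176001 to 177000 with 154 CpGs, read 0.0106, 0.0115, 0.0122, 0.00842 and 0.0110 in the Florida sets in order of development and 0.0129, 0.0653 and 0.0493 in Massachusetts sperm, cleavage embryos and blastulae. The window on scaffold_110 from 237001 to 238000, with 143 CpGs, was at or below 0.0127 in all 8 sets. The window on scaffold_9 from 1603001 to 1604000, with 144 CpGs, was below 0.1 in all 8, and its highest value, 0.0958, was in Massachusetts blastulae. Among the 310 windows of 100 or more CpGs measured in all sets, 0.645% were ever above 0.8, against 18.3% of all windows. In 4 of them (1.29%) the populations separated with Massachusetts above, and in 2 with Florida above. Over all windows these shares were 2.60% and 0.221%. Counts of 4 and 2 are too small to compare with those shares.

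Dense windows often lay side by side. They formed 7399 runs, of which 5614 were single windows and 246 had 8 or more windows in a row. The long runs held 2621 windows (20.8% of all) with a mean of 71.6 to 109.9 CpGs. The longest had 20 windows, on scaffold_108 from 139001 to 159000, and no window of it exceeded 0.0288 in any set. Of the 246 long runs, 233 had a mean level below 0.2 in every measured set and 13 had a mean above 0.2 in at least 1.

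**Figure D5:**
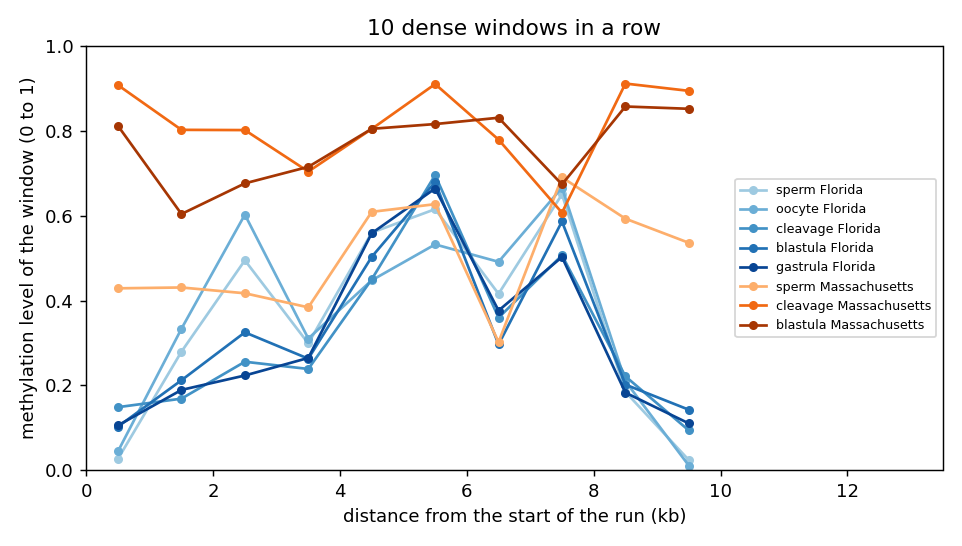
Methylation level of each of the 10 consecutive dense windows on scaffold_454, by distance of the window's centre from the start of the run, in the 8 sets. Both Massachusetts embryo lines stay at 0.604 or above, whereas the Florida lines are higher inside the run and at most 0.149 at both ends.

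The run on scaffold_454 from 65001 to 75000 had the highest Massachusetts embryo levels of the 13. Its mean level was 0.355 in Florida sperm, 0.365 in oocytes, 0.314 in cleavage embryos, 0.331 in blastulae and 0.318 in gastrulae, and 0.502, 0.812 and 0.764 in Massachusetts sperm, cleavage embryos and blastulae. At its first window the Florida levels were 0.0270, 0.0448, 0.149, 0.103 and 0.106 against 0.429, 0.908 and 0.811 in Massachusetts. At the sixth, Florida had 0.615, 0.532, 0.696, 0.679 and 0.664 against 0.627, 0.910 and 0.816. At both ends of the run all Massachusetts sets lay above all Florida sets. Massachusetts sperm lay within the Florida range at the third, the sixth and the seventh window and above it at the others. The runs on scaffold_56 (269001 to 283000) and scaffold_264 (57001 to 65000) had the same order, with Massachusetts cleavage embryos at 0.484 and 0.511 and Florida sets at 0.159 to 0.251. In contrast, the run on scaffold_272 from 235001 to 243000 had 0.370 to 0.464 in Florida, 0.423 in Massachusetts sperm and 0.105 and 0.0444 in the Massachusetts embryos. These means cover different windows, since 6 to 8 of its 8 windows were measured in the Florida sets, 5 in Massachusetts sperm and 4 in each Massachusetts embryo set.

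Many dense windows shared their CpG pattern. Windows were linked when they had at least 3 identical series of 10 consecutive distances between CpGs, in either orientation, a description chosen after seeing the data. This linked 7364 of the 12573 windows (58.6%) to at least 1 other, against 24.9% of the 17236 windows of 50 to 59 CpGs among themselves. A window with more CpGs holds more such series that can match, so these shares are not on equal terms. A single linked set held 4822 windows on 555 scaffolds, with a median of 83 CpGs, and the next held 173 and 117. The large set took 75.7% of the 3972 windows with 80 or more CpGs and 93.2% of the windows in long runs. Its median depth was 0.456 to 0.601 times that of the set, against 1.20 to 1.67 in the 5209 windows with no link.

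Levels in the large linked set were below those of unlinked windows, but low levels were not particular to it. Of its 2875 windows measured in all sets, 2750 (95.7%) were unmethylated in all 8, 18 were ever above 0.8, 1 was methylated in all 8 and 32 (1.11%) separated the populations with Massachusetts above. Of the 4695 unlinked windows measured in all sets, 4202 (89.5%) were unmethylated in all 8, 143 were ever above 0.8, 29 were methylated in all 8 and 126 (2.68%) separated the populations. The mean level ranged from 0.0146 in Florida blastulae to 0.0308 in Massachusetts cleavage embryos in the large set and from 0.0361 to 0.0681, in the same sets, in the unlinked windows. The linked sets of 173 and 117 windows also lay below the unlinked windows, at 0.0155 and 0.0179 in Florida sperm. There the large set had 0.0170, all other linked sets together 0.0379 and the unlinked windows 0.0389. The sets of 173 and 117 had depths of 1.15 and 0.977 times the median there, against 0.498 in the large set. The large set had a median of 83 CpGs and the unlinked windows 65. Windows that are copies of each other are not independent, so no test was run on these sets. The parts of depth and of the number of CpGs in the contrast were not tested.

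Windows with a tandem CpG pattern held more methylation than other dense windows. Only CpGs whose partner position lay inside the window were counted, so a long distance used only part of the window. By this count, 657 dense windows (5.23%) had at least 80% of CpGs paired at a single fixed distance of 10 to 400 bp. The median best distance of these windows was 60 bp. Their mean level was 0.0776 to 0.0835 in Florida and 0.116 to 0.134 in Massachusetts, against 0.0270 to 0.0305 and 0.0436 to 0.0553 in the other dense windows. Of the 504 measured in all sets, 36 (7.14%) were ever above 0.8 and 28 (5.56%) had Massachusetts above Florida, against 2.15% and 2.12% of the others. These shares describe a pattern chosen after seeing the data and carry no test.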

How the data were processed

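The authors used Trimmomatic for trimming and Bismark for alignment to ASM20922v1 plus lambda DNA, removed duplicates, clipped overlapping pairs and extracted calls. SAMtools 0.1.19 is named in the submitters' processing notes, and other versions are not given in the sources used here. The deposited counts give the reads with and without methylation at each CpG, strands added. The deposited fraction, the level of each CpG, was not used, and levels were recomputed from the counts without a correction for unconverted cytosines.

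Windows, levels, 10 pairwise Fisher's exact tests and the exact permutation test were computed with Python 3.11.15, numpy 2.4.6 and scipy 1.17.1. The Fisher procedure was run on simulated reads drawn independently at each CpG. Those lack the dependence between CpGs of the same read, so the run cannot show how far the p-values are too small. Named windows were the 10 with the highest lowest level, for each comparison and direction up to 2 called windows that differed most over at least 20 shared CpGs, the 3 with the most CpGs and the 4 with the largest gap between populations. Windows of runs and of the reverse group were named after their values were seen. The members and lists were chosen with earlier results of these data known. Alternatives changed depth and density limits, window starts, weighting and thresholds. Reads carry no molecular identifiers, so intervals cover counting error only.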

Additional observations from a re-analysis of the deposited data

Results flagged for a closer look

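The mean level of the dense windows moved in opposite directions between sperm and blastula in the 2 populations. In Florida it was 0.0320 in sperm and 0.0297 in blastulae, a difference of -0.00236. In Massachusetts it was 0.0475 and 0.0568, a difference of 0.00929. The less dense windows gave -0.00734 and 0.00472. From sperm to cleavage embryos the dense mean, not corrected for unconverted cytosines, rose by 0.00118 in Florida and 0.0120 in Massachusetts. The less dense windows gave -0.00628 and 0.0102. In dense windows unmethylated in all 8 sets, the Florida median was 0.00801 in sperm, 0.0106 in cleavage embryos and 0.00677 in blastulae. The Massachusetts median of these windows was 0.00915 in sperm, 0.00884 in cleavage embryos and 0.00926 in blastulae. The part of unconverted cytosines in these changes was not tested. With 1 set per stage and population the difference between these changes was not tested.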

How the results depend on the processing

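Of 193 values under other settings, 127 stayed close to the reported value, 65 moved and 1 lost its threshold. Counts follow the order in which the comparisons are named. With windows of at least 50 CpGs, calls were 248 for oocyte against sperm, 156 for cleavage against sperm, 153 for cleavage against oocyte, 20 for blastula against cleavage and 5 for gastrula against blastula in Florida. They were 707 for cleavage against sperm and 137 for blastula against cleavage in Massachusetts, and 971, 1493 and 1546 between populations in sperm, cleavage embryos and blastulae. There, 893 windows were ever above 0.8, 26794 were below 0.2 throughout, the mean level over sets was 0.0446 against 0.0404, and 594 and 21 windows separated the populations with Massachusetts or Florida above. With at least 70 CpGs the first 4 Florida counts were 40, 20, 24 and 1, the Massachusetts counts 111 and 24 and the population counts 165, 270 and 280, with 104 windows above 0.8, 6256 below 0.2, a mean of 0.0341 and 103 windows with Massachusetts above.

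With a difference of at least 0.3, the first 4 Florida counts were 31, 13, 16 and 0, the Massachusetts counts 131 and 11, and the sperm count between populations 206. With CpGs at least 200 bp apart, a setting chosen after seeing the data, the 5 Florida counts were 54, 24, 20, 0 and 0 and the Massachusetts counts 54 and 0. Blastula against cleavage in Florida gave 8 calls at 1 read per CpG, 5 at 10 reads, 12 with windows shifted by 500 bp and 5 with pooled reads. At 50 CpGs, 1 read and shifted windows, its calls were 13 higher and 7 lower, 4 and 4, and 5 and 7, against 0 and 3. The single gastrula call was a higher one at 1 read and with shifted windows, against a lower one as reported, and it became 0 at 10 reads, with at least 20 measured CpGs and after thinning to the shallowest set. Blastula against cleavage in Massachusetts gave 91 calls at 1 read and 29 at 10 reads. The mean level over sets was 0.0399 at 1 read, 0.0407 at 10 reads, 0.0397 with shifted windows, 0.0403 with at least 20 measured CpGs and 0.0403 with pooled reads. With bounds of 0.1 and 0.9, 153 windows passed the upper bound.

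Windows with Massachusetts above numbered 387 at a gap of 0.1 and 134 at 0.3, and those with Florida above 17 and 2, with 12 at 1 read and 11 with shifted windows. Leaving out each set in turn gave 219 to 374 windows with Massachusetts above, 6 to 17 with Florida above, and mean differences of 0.0202 to 0.0262. The highest counts came without Massachusetts sperm. The mean difference over the 3 shared stages was 0.0231, with an exact permutation p of 0.25. The cause of these shifts was not tested. No paired analysis was possible because each stage and population has 1 set and no replicates to pair, apart from the pairing of populations by stage behind the p of 0.25.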

Other observations

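The other species of the series held very different numbers of windows with at least 60 CpGs. Honey bee had 70387 of 230978 windows (30.5%), with mean levels of 0.00700 to 0.00820 over its 6 sets and 0 windows above 0.8 in any of them. These means include unconverted cytosines, whose part was not tested. Sea urchin had 5645 of 830497 (0.680%), with means of 0.118 to 0.140 and 203 to 276 windows above 0.8. Sea squirt had 3036 of 142752 (2.13%), with means of 0.0886 to 0.0932 and 123 to 142 windows above 0.8. The less dense windows had the higher mean in each set of these species. Honey bee gave 0.0242 to 0.0464, sea urchin 0.2998 to 0.334 and sea squirt 0.363 to 0.399.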
